A study of Physcomitrium patens with 47 samples.

Results

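The light-induced genes described here are 150 genes of the moss Physcomitrium patens whose transcripts rose in wild-type plants between the end of the night and early day, and then stayed at the level reached. They are 150 of the 32926 genes in the count table. They were chosen by their levels in the wild-type (WT) libraries alone. The levels were CPM, a gene's count divided by the total of all gene counts in that library and scaled to a total of 1000000. Genes of 3 identifier prefixes were set aside, which left 29976 genes. Of these, 29878 averaged under 1000 CPM over the WT libraries, and 11600 of those reached a mean of at least 10 CPM at 1 or more WT times. A rise of at least 0.5 in mean log2(CPM + 1) from zeitgeber time (ZT, hours after lights on) 0 to ZT2 was met by 2823 genes. A further change of less than 0.5 from ZT2 to ZT6 was met by 1405 of them, and the 150 with the largest rise were taken. The rise was scored as the mean of the ZT2 and ZT6 levels minus the ZT0 level. It lay between 1.51 and 4.40 on the log2 scale, with a median of 1.96, and 19 members scored 3 or more. The last members taken, Pp3c21_12340 and Pp3c11_19700, scored 1.52 and 1.51. The next genes below them, Pp3c22_16100 and Pp3c16_7480, also scored 1.51, so the lower limit of the set does not mark a gap. These WT values are given below as a description, and no test of them is read as a result, because they chose the genes.

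In plants, the step from night to day changes many transcripts through photoreceptors, signals from the chloroplast, the sugars made by photosynthesis and the circadian clock. Mitochondrial respiration burns stored carbon in the night, and in the light it also takes up reducing power that leaves the chloroplast. COX11 helps to insert copper into cytochrome c oxidase, the terminal oxidase or complex IV of the respiratory chain. NDUFA5 belongs to NADH dehydrogenase, complex I, the main entry point of electrons, which plants can bypass with alternative dehydrogenases.

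The series asks what respiration does for the metabolism of this moss. Messenger RNA ends were counted by 3′ tag sequencing in 47 libraries of 3 genotypes at ZT0, ZT2 and ZT6. There were 6, 4 and 8 WT libraries at the respective times. COX11 knockout (KO) plants, in which a resistance cassette interrupts COX11, had 5 libraries at each time, from lines 150 and 152. NDUFA5 KO plants, made in the same way, had 4, 5 and 5 libraries, from lines 46 and 48. The lines were made separately, and 2 lines stand for each knockout. All plants were mixtures of protonema (filaments) and young gametophores (leafy shoots), grown over liquid nitrate medium in closed boxes with equal day and night. The boxes harvested at ZT0 had been kept in foil from the start of the night and were frozen under dim green light, and the others were frozen in the lit chamber. Light, foil and time of day therefore change together between ZT0 and the later times and cannot be told apart. Gene counts per library ranged from 4060158 to 10349604, with a median of 5659267. No tissue markers or targeted genes could be checked, because neither the files nor the reference used here link the table's identifiers to names, and for the same reason no function is given for any member. In such bulk material, fewer cells that use a gene and less RNA per cell cannot be told apart.

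The members covered a wide range of levels in WT. The median member had a mean of 10.2 CPM at ZT0, 50.3 CPM at ZT2 and 47.2 CPM at ZT6. At ZT0, 72 members were under 10 CPM and 5 were under 1 CPM, whereas 52 reached 100 CPM or more at ZT2 or ZT6. From ZT2 to ZT6, 57 members were slightly higher and 93 slightly lower, all within the limit that the choice set. The members were spread over 23 of the 24 chromosome-style identifier prefixes that held eligible genes. The prefix Pp3c24 held 6.67% of the members and 3.34% of the eligible genes. Other prefixes went the other way, with 0.667% and 3.81% for Pp3c17, and 0 members and 4.81% of the eligible genes for Pp3c7. The spread over prefixes was not tested. Only 2 pairs of members were next to each other by identifier number, Pp3c12_22320 with Pp3c12_22330 and Pp3c18_9170 with Pp3c18_9180. None of the pairs had identical counts, and Pearson's r of log2 CPM over the 47 libraries was 0.868 in each pair. This r is a description, since the libraries share the genotypes and times.

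Pp3c12_22330 had the highest score. From here on, CPM of single genes are scaled by TMM, the trimmed mean of M-values, which corrects library totals for a few very abundant genes. At ZT0 its WT values ran from 2.10 to 23.7 CPM with a median of 8.28. At ZT2 the 4 WT libraries had 125, 164, 306 and 122 CPM, and at ZT6 the values ran from 40.8 to 636 with a median of 231. No WT library in the light overlapped those of ZT0, but the ZT6 libraries spread widely. Its neighbour Pp3c12_22320 was the most abundant member. It had a median of 254 CPM in WT at ZT0 and of 915 CPM at ZT6, and 976, 1056, 1700 and 827 CPM at ZT2. It alone held a median of 6.68% of the counts of all 150 members over the 47 libraries, and between 2.03% and 16.3% in single libraries. The next most abundant member, Pp3c12_19890, had a median of 316 CPM at ZT0 and of 897 CPM at ZT6 in WT, with 1032, 870, 957 and 781 CPM at ZT2.

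As a set, the members took a larger share of all gene counts in the light in all 3 genotypes. In WT the share averaged 0.491% ± 0.127 (SD, n = 6) at ZT0, 1.98% ± 0.180 (n = 4) at ZT2 and 2.02% ± 0.369 (n = 8) at ZT6. In COX11 KO it was 0.637%, 0.778%, 0.672%, 0.827% and 0.641% in the 5 libraries of ZT0, and each of these was above each WT library of ZT0. The choice favoured genes with low WT levels at ZT0, so this order may be built in and is not read as an effect of the knockout. At ZT2 the COX11 KO libraries had 2.06%, 2.43%, 1.80%, 2.94% and 2.11%, and at ZT6 they had 1.78%, 1.62%, 1.53%, 1.65% and 1.52%. The ZT6 libraries of COX11 KO were all below those of ZT2 in the same genotype. In NDUFA5 KO the share was 0.209%, 0.244%, 0.235% and 0.228% at ZT0, below every other library of the series. At ZT2 it was 4.05%, 2.03% and 3.52% in line 46 and 1.36% and 1.41% in line 48. At ZT6 it was 1.55%, 2.03% and 3.01% in line 46 and 1.54% and 2.40% in line 48. The shares of NDUFA5 KO in the light thus spread over a wider range than those of the other genotypes.

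**Figure D1:**
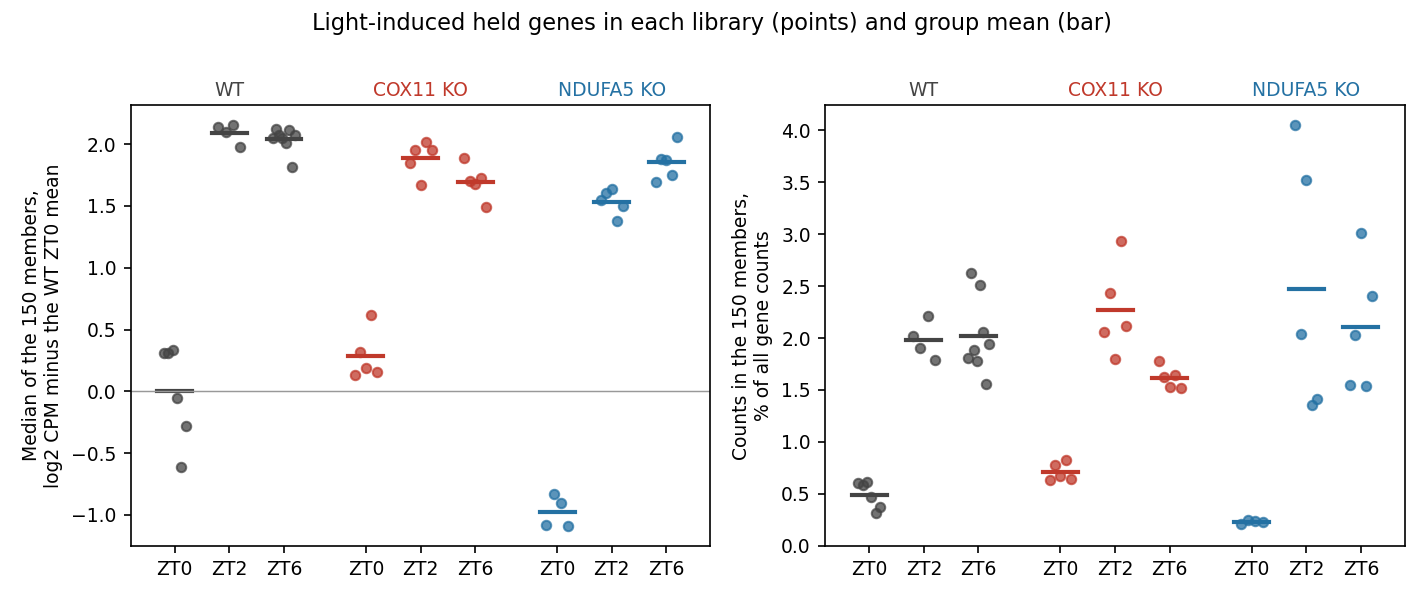
The 150 light-induced held genes in each of the 47 libraries (points), with the mean of each group (bars), by genotype and ZT. Left, the median over members of log2 CPM minus that member's mean in WT at ZT0. Right, the percentage of all gene counts that fell in the members. The NDUFA5 KO libraries of ZT0 lie lowest on both axes, at medians between -1.09 and -0.83 and at shares from 0.209% to 0.244%.

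The median member gives each gene the same weight, whatever its abundance. Measured as log2 CPM above the WT mean at ZT0, it stood at 2.09 ± 0.08 (SD, n = 4) in WT at ZT2 and 2.04 ± 0.10 (n = 8) at ZT6. In COX11 KO it was 0.28 ± 0.20 (n = 5) at ZT0, 1.89 ± 0.13 at ZT2 and 1.70 ± 0.14 at ZT6. In NDUFA5 KO it was -0.98 ± 0.13 (n = 4) at ZT0, 1.53 ± 0.10 (n = 5) at ZT2 and 1.85 ± 0.14 (n = 5) at ZT6. By this measure NDUFA5 KO was lowest before light, and its 5 libraries of ZT2 lay between 1.38 and 1.63, with the 3 of line 46 above the 2 of line 48. The WT libraries of ZT0 were themselves uneven, with replicates 1, 2 and 3 at 0.31, 0.31 and 0.33 and replicates 4, 5 and 6 at -0.05, -0.61 and -0.28. At ZT0, 20 members averaged under 1 CPM in NDUFA5 KO, 10 in COX11 KO and 5 in WT.

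**Figure D2:**
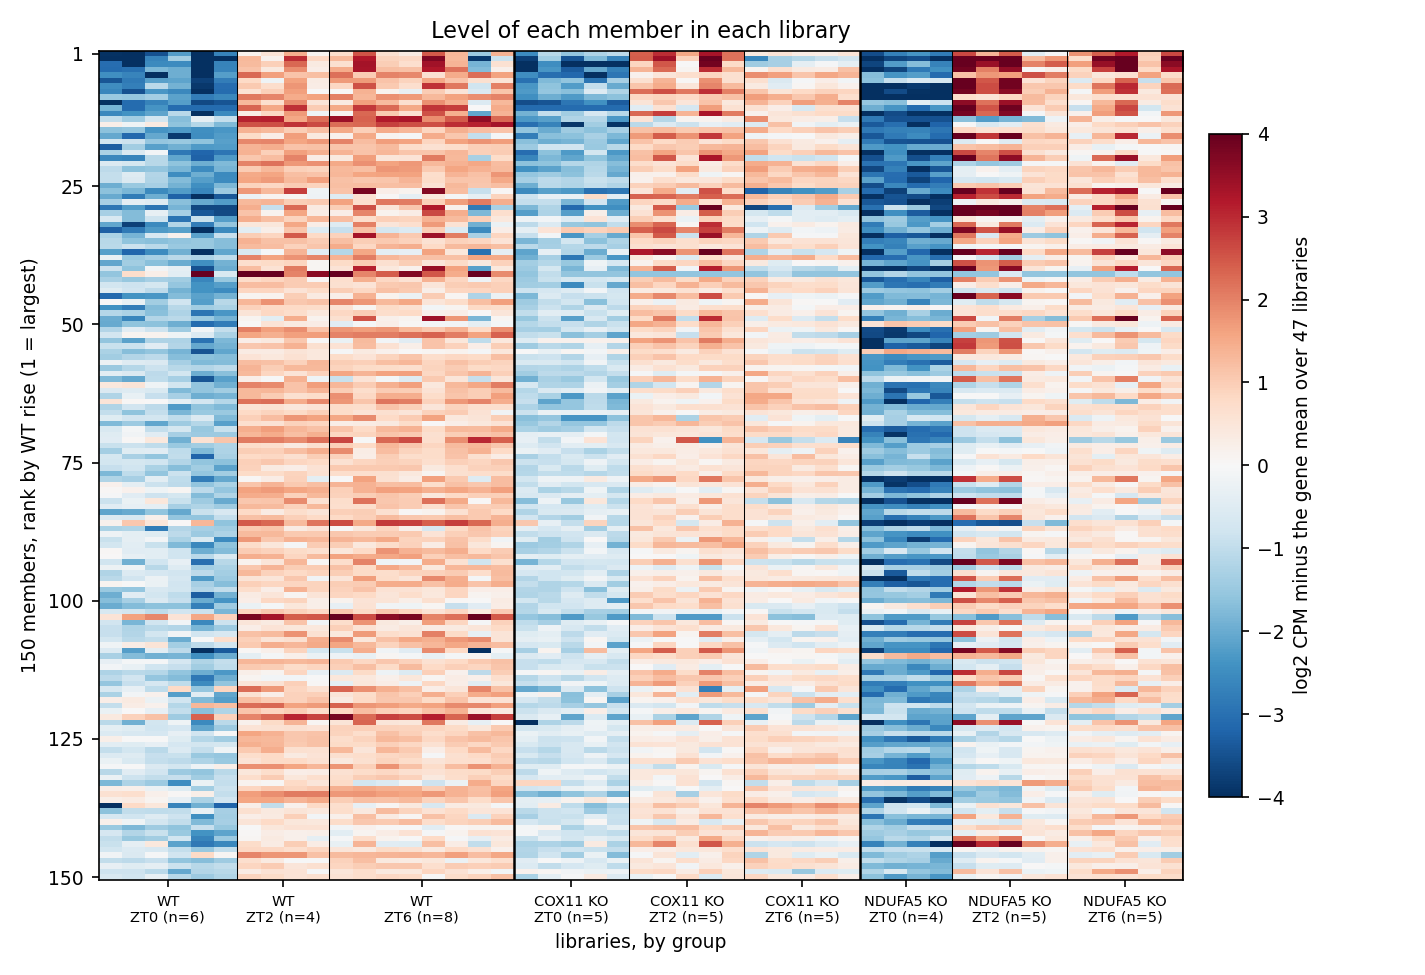
Level of each of the 150 members (rows, by rank of the WT rise) in each of the 47 libraries (columns, by group), as log2 CPM minus that gene's mean over all libraries, with colours limited to 4 in either direction. Blue columns at ZT0 turn red at ZT2 and ZT6 in all 3 genotypes. The rows of the 5 NDUFA5 KO libraries at ZT2 differ between the 3 of line 46, on the left, and the 2 of line 48.

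The time course in the knockouts is the same measure in libraries that took no part in the choice, so it was tested. Differences were tested with edgeR's quasi-likelihood test over all 18460 genes that passed a filter on low counts, and a gene was called at a false discovery rate (FDR, the Benjamini-Hochberg adjusted p) under 0.05. All 150 members passed the filter, which a gene could pass through its WT light libraries alone. The labels leave unsaid whether libraries of a group are separate cultures. The p-values therefore reflect only the spread among these libraries, and part of it may be technical.

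Most members were called higher in the light in COX11 KO, more of them at ZT2 than at ZT6. At ZT2, 133 of the 150 members were called higher than at ZT0 and 0 were called lower, against 22.7% of all genes called higher and 23.7% called lower. The median log2 fold change was 1.64 for the members and -0.03 for all genes tested. At ZT6, 110 members were higher than at ZT0 and 1 was lower, against 24% and 27.1% of all genes, with a median of 1.31 for the members. Both contrasts use the same ZT0 libraries. Every library of ZT2 lay above every library of ZT0 in 118 of the called members, against 16.5% of all genes called higher without overlap and 16% called lower without it. Every library of ZT6 did so in 101, against 16.5% and 18.1% of all genes.

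Pp3c24_9770 rose most by the fitted change in COX11 KO. It had 0 counts in the 5 libraries of ZT0 and 1.83, 4.24, 1.52, 9.17 and 4.22 CPM at ZT2. Against a floor of 3 counts over the ZT0 group, it was at least 37.9-fold higher at ZT2 and at least 32.3-fold higher at ZT6 (edgeR adjusted p = 0.00017 and 0.00035). These bounds do not cover the spread among libraries. The first was 27.2-fold without 152-1 of ZT2, and the second 30.5-fold without 152-2 of ZT6. At ZT6 the gene had 4.19, 3.25, 1.57, 4.29 and 4.23 CPM, which overlapped the ZT2 values. Setting this gene at its bound left the medians over members at 1.64 and 1.31. Pp3c1_37850 went from 0.916, 3.32, 0.925, 0 and 0.903 CPM at ZT0 to 37, 116, 20.6, 300.02 and 35.1 CPM at ZT2. The groups did not overlap, and the log2 fold change was 6.30 ± 1.01 (SE; edgeR adjusted p = 1.73e-06).

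Pp3c24_1420 was higher at each later time. In COX11 KO it had 0.916, 0.524, 0.463, 0 and 0.602 CPM at ZT0, then 7.76, 9.79, 11.1, 12.7 and 10.8 CPM at ZT2, and 25.9, 22.2, 15.3, 20.4 and 18 CPM at ZT6. The libraries of each time lay above all those of the time before. Its log2 fold change from ZT0 to ZT6 was 5.26 ± 0.45 (SE; edgeR adjusted p = 6.56e-13). The single member called lower at ZT6 than at ZT0 was Pp3c21_12340, the last but 1 taken by score. It had 25.0, 23.4, 20.4, 18.5 and 19.4 CPM at ZT0 and 15.3, 14.9, 7.48, 15.2 and 15.9 CPM at ZT6. The log2 fold change was -0.63 ± 0.27 (SE; edgeR adjusted p = 0.0476), and without the lowest ZT6 library, line 152 replicate 1, it was -0.47 with an adjusted p of 0.156. The call was also lost with knockout libraries only (edgeR adjusted p = 0.0865). It was lost too without some libraries outside the contrast, such as 46-1 of NDUFA5 KO at ZT6 (edgeR adjusted p = 0.0623). Other settings kept the call, which lay close to the limit.

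Most members were also called higher in the light in NDUFA5 KO. At ZT2, 139 members were called higher than at ZT0 and 0 lower, against 31.1% and 29.1% of all genes. The median log2 fold change was 2.64 for the members and 0.06 for all genes. At ZT6, 140 members were higher than at ZT0 and 3 were lower, against 37.1% and 34.9% of all genes, and the median was 2.87. Again both contrasts rest on the same 4 libraries of ZT0. Groups did not overlap in 132 of the members called higher at ZT2, against 22% of all genes called higher without overlap and 22.3% called lower without it. At ZT6 they did not overlap in 135 called higher and 2 called lower, against 30.1% and 29.3% of all genes.

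Pp3c24_9670, ranked 2 by its WT score, had the largest rise in NDUFA5 KO. It had 0.416, 1.27, 1.41 and 0 CPM at ZT0. At ZT2 the 3 libraries of line 46 had 1297, 318 and 1028 CPM and the 2 of line 48 had 49.1 and 68.2 CPM, all far above ZT0. The log2 fold change was 9.28 ± 1.45 (SE; edgeR adjusted p = 5.6e-07). At ZT6 the values were 33.6, 305 and 1044 CPM in line 46 and 37.7 and 399.8 CPM in line 48, still above every library of ZT0 (8.68 ± 1.44, adjusted p = 1.01e-06). Pp3c11_14880 came next, from 0.208, 0, 0.808 and 0.482 CPM at ZT0 to 248, 35, 168, 6.76 and 11 CPM at ZT2. Its log2 fold change was 8.11 ± 1.34 (SE; edgeR adjusted p = 1.46e-06), and again the libraries of line 46 were the higher ones.

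The 2 members that fell in NDUFA5 KO without overlap between ZT0 and ZT6 had been high at ZT0. Pp3c3_32100 had 43.7, 65.6, 59.8 and 53.8 CPM at ZT0, whereas the highest of the 6 WT libraries at ZT0, where the choice favoured low levels, had 8.99 CPM. It had 13.2, 15.5, 14.8, 19.7 and 26.7 CPM at ZT6, below every library of ZT0, with a log2 fold change of -1.64 ± 0.27 (SE; edgeR adjusted p = 8.23e-07). Pp3c18_22450 had 69.7, 102, 97.4 and 79.6 CPM at ZT0 and 49.4, 60.7, 65.7, 41.6 and 59.6 CPM at ZT6. The groups did not overlap, and the log2 fold change was -0.66 ± 0.18 (SE; edgeR adjusted p = 0.0011). With libraries scaled by their totals only, it was -0.31 and was not called (adjusted p = 0.126).

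The choice made every member hold its ZT2 level in WT, so WT is no yardstick here. In the knockouts the group means of many members moved further. By size alone, with the limit of 0.5 that the rule used, 67 of 150 members (44.7%) stayed within the limit from ZT2 to ZT6 in COX11 KO and 41 (27.3%) in NDUFA5 KO. Among all genes tested the shares were 68.5% and 56.2%, and among the 1255 lower-ranked genes that met the WT limits they were 74.3% and 59.3%. A rise of at least 0.5 to ZT2 was met by 136 members in COX11 KO and 144 in NDUFA5 KO, against 18.9% and 38.5% of all genes tested and 49.8% and 75.9% of the lower-ranked genes. Both a rise and a held level were met by 59 members (39.3%) in COX11 KO and 38 (25.3%) in NDUFA5 KO, and by 22 in both knockouts. The shares meeting both were 10.3% and 19.2% among all genes tested, and 37% and 43.8% among the lower-ranked genes. The members' share was thus near that of the lower-ranked genes in COX11 KO and below it in NDUFA5 KO. These shares are descriptions of group means. The members also spread more among libraries than all genes did. In COX11 KO at ZT2 the median SD of log2 CPM was 0.295 for members and 0.212 for all genes. In NDUFA5 KO at ZT2 it was 0.570 and 0.296. There, lines 46 and 48 were apart in many members, so the group mean depends on the mix of lines. How far this spread lowers the held shares was not tested. In COX11 KO, 58 members (38.7%) dropped past the limit and 25 (16.7%) went up past it, against 15.5% and 15.9% of all genes, so that the share going up was near that of all genes. In NDUFA5 KO 46 (30.7%) dropped and 63 (42%) went up, against 18.5% and 25.3%.

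By the test, the changes from ZT2 to ZT6 went both ways. In COX11 KO, 25 members were called higher at ZT6 and 49 lower, against 17.7% and 19% of all genes. The share of members called higher, 16.7%, was near that of all genes, and the share called lower, 32.7%, was above it. In NDUFA5 KO, 55 members were higher and 38 lower, against 24.1% and 27.2% of all genes. Here the share called higher, 36.7%, was above that of all genes and the share called lower, 25.3%, was near it. The median change was -0.26 in COX11 KO and 0.21 in NDUFA5 KO.

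These contrasts share no library between the knockouts. Of the 150 members, 24 were called lower in both and 21 higher in both, against 12.4% and 11.3% of all genes. That is 49% and 84% of the members so called in COX11 KO and 63.2% and 38.2% of those in NDUFA5 KO. Over all genes the same shares were 65.3% and 63.9% of the calls in COX11 KO and 45.7% and 46.8% of those in NDUFA5 KO. The members' shares thus lay above those of all genes in some cases and below them in others. Another 4 members were lower in COX11 KO and higher in NDUFA5 KO, 1 was the reverse, and 33 were called in neither. These classes were not counted over all genes. Across members, Pearson's r between the changes of the knockouts was 0.547. It is a description over genes, which are not independent of each other, and r over all genes was not taken. Sample codes in the labels begin with A or Z, without a stated meaning. In COX11 KO, 4 of the 5 ZT2 libraries have codes in A and 4 of the 5 ZT6 libraries codes in Z. In a fit with the letter as a covariate, 77 members were called in either direction between ZT2 and ZT6 in COX11 KO and 95 in NDUFA5 KO, against 33.9% and 51.6% of all genes. The fit without it called 74 and 93, against 36.7% and 51.3% of all genes in either direction.

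**Figure D3:**
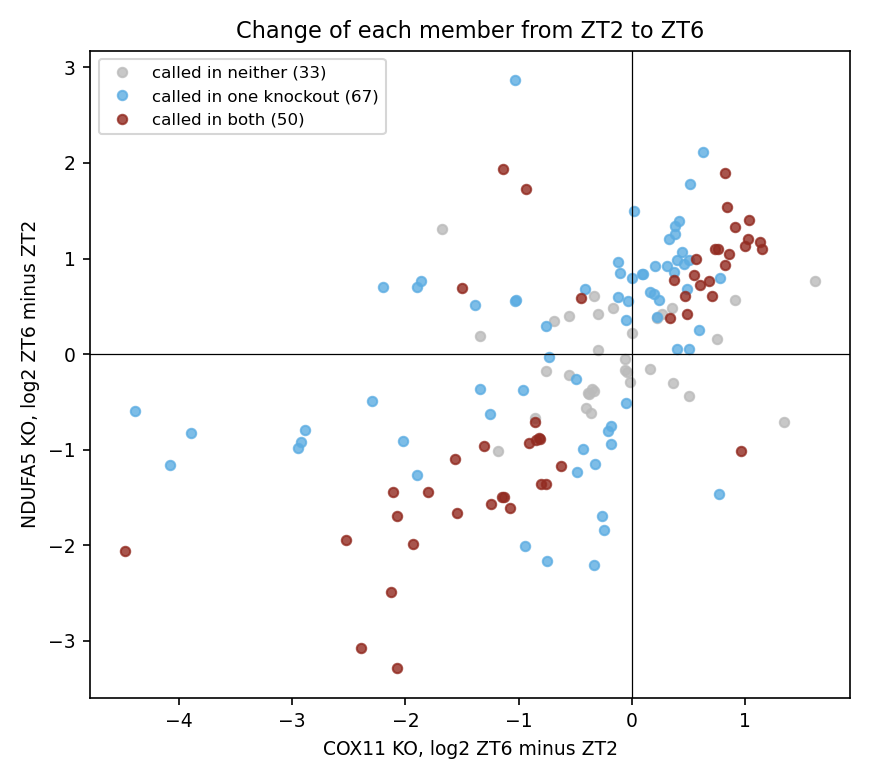
Change from ZT2 to ZT6 of each of the 150 members as log2 fold change, in COX11 KO (horizontal axis) and NDUFA5 KO (vertical axis). Colours show whether a member was called at FDR 0.05 in both knockouts, in 1 of them or in neither (33 members). The lower left and upper right hold the members that moved the same way in both knockouts. The figure does not show all genes.

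Pp3c24_9670 and Pp3c11_14880 were the members whose level fell most after ZT2 in COX11 KO among those with groups that did not overlap. Pp3c24_9670 went from 111, 217, 39.2, 424 and 92.6 CPM at ZT2 to 3.10, 7.84, 9.04, 10.5 and 11.8 CPM at ZT6, after 1.14, 7.51, 1.54, 5.69 and 2.86 CPM at ZT0. The log2 fold change from ZT2 to ZT6 was -4.38 ± 0.98 (SE; edgeR adjusted p = 0.00045), whereas ZT6 against ZT0 was 1.18 ± 1.08 (adjusted p = 0.374). Pp3c11_14880 went from 6.24, 13, 3.19, 27.2 and 7.43 CPM to 0.155, 0.382, 0.522, 0.659 and 1.59 CPM, a log2 fold change of -4.08 ± 1.17 (SE; edgeR adjusted p = 0.0051). In both genes every ZT6 library lay below every ZT2 library, and the ZT6 and ZT0 libraries overlapped. Of the members that rose after ZT2, Pp3c9_9200 and Pp3c4_20230 had not been called between ZT0 and ZT2 in COX11 KO, at log2 fold changes of 0.36 ± 0.25 and 0.42 ± 0.38 (SE; edgeR adjusted p = 0.245 and 0.390). Pp3c9_9200 went from 46.4, 33.6, 65.9, 33.6 and 41.9 CPM at ZT2 to 111, 91.8, 97.2, 112 and 72 CPM at ZT6 (log2 fold change 1.13 ± 0.25, edgeR adjusted p = 0.00036). Pp3c4_20230 went from 57.5, 79.8, 143, 58.7 and 143 CPM to 285, 263, 185, 184 and 152 CPM (1.15 ± 0.38, adjusted p = 0.0164). In neither gene did the groups overlap.

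Pp3c26_1140 and Pp3c3_12760 went on rising after ZT2 in NDUFA5 KO and were scarce there at ZT2. Pp3c26_1140 had 0.907, 0.652, 0.560, 5.15 and 2.76 CPM at ZT2 and 16.3, 14.4, 15.5, 19.9 and 9.60 CPM at ZT6. The log2 fold change was 2.87 ± 0.53 (SE; edgeR adjusted p = 1.62e-05), and 4.34 with libraries of code letter Z only, which leaves line 46 alone at ZT2. Pp3c3_12760 had 0.907, 0.489, 0.747, 0.805 and 3.11 CPM at ZT2 and 9.88, 4.32, 3.46, 3.69 and 4.97 CPM at ZT6 (2.12 ± 0.51, edgeR adjusted p = 0.00056). For comparison, the 4 WT libraries of ZT2 had 57.3, 50.9, 25.1 and 46.3 CPM of Pp3c26_1140 and 33.3, 34.1, 11.2 and 18.4 CPM of Pp3c3_12760, all above the NDUFA5 KO libraries of that time. High WT levels in the light helped to choose these genes, so this order is partly built in. Pp3c16_12200 fell from 220, 80.7, 201, 37.8 and 27.8 CPM at ZT2 to 7.90, 13.4, 22.6, 7.18 and 15.9 CPM at ZT6 in NDUFA5 KO (-3.07 ± 0.49, edgeR adjusted p = 1.62e-06). Pp3c18_2070 fell from 109, 52.0, 93.0, 33.6 and 27.1 CPM to 14, 15.8, 9.90, 15.8 and 12.4 CPM (-2.21 ± 0.28, adjusted p = 1.3e-08). Every ZT6 library lay below every ZT2 library in both genes.

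Set against each other, the knockouts differed most before light. At ZT0, 104 members were called higher in COX11 KO than in NDUFA5 KO and 9 lower, against 31.6% and 28.4% of all genes. The median difference was 1.21 for the members and 0.09 for all genes, on the log2 scale. With libraries scaled by their totals only, the median of all genes moved to 0.48 and that of the members to 1.59, so that both medians moved up together. At ZT2, 46 members were higher in COX11 KO and 20 lower, against 13.6% and 15.2% of all genes, with a member median of 0.20. At ZT6, 15 were higher and 23 lower, against 9.91% and 8.49%, with a member median of -0.12. The share higher at ZT6, 10%, was near that of all genes.

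At ZT0, Pp3c16_23250 had 116, 169, 168, 249 and 171 CPM in COX11 KO and 4.99, 13.7, 10.9 and 5.55 CPM in NDUFA5 KO. Its WT libraries ran from 28.6 to 145 CPM, between the knockouts with some overlap with COX11 KO. The log2 difference between the knockouts was 4.27 ± 0.57 (SE; edgeR adjusted p = 2.13e-08). By ZT2 NDUFA5 KO had reached 1459, 542, 1180, 203 and 210 CPM and COX11 KO 561, 651, 348, 852 and 423 CPM, which overlapped (-0.34 ± 0.43, adjusted p = 0.595). Pp3c26_1140 had 22, 8.03, 5.09, 19 and 4.36 CPM in COX11 KO at ZT0 and 0.416, 0, 0.404 and 0 CPM in NDUFA5 KO, a log2 difference of 5.81 ± 0.91 (SE; edgeR adjusted p = 6.72e-07). It was still higher in COX11 KO at ZT2, where COX11 KO had 14.3, 17.8, 6.07, 12.6 and 26.9 CPM (2.91 ± 0.53, edgeR adjusted p = 4.12e-05). At ZT6 the groups overlapped, with 9.77, 5.55, 12.0, 7.42 and 3.17 CPM in COX11 KO (-0.98 ± 0.45, adjusted p = 0.121). In COX11 KO this gene was not called between any of the times.

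Pp3c19_14070 climbed in steps in NDUFA5 KO. There it had 14.6, 7.52, 9.70 and 5.79 CPM at ZT0, then 45.2, 42.2, 39.6, 109 and 81.1 CPM at ZT2, and 168, 171, 120, 235 and 201 CPM at ZT6, with no overlap between successive times. In COX11 KO it had 149, 159, 183, 135 and 189 CPM at ZT2, above every NDUFA5 KO library of that time (log2 difference 1.36 ± 0.24, edgeR adjusted p = 3.29e-05). Within COX11 KO its changes between times were not called, at 0.43 ± 0.24 from ZT0 to ZT2 (edgeR adjusted p = 0.131) and 0.02 ± 0.24 from ZT2 to ZT6 (adjusted p = 0.960).

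Members that were lower in COX11 KO than in NDUFA5 KO at ZT0 were few. Pp3c18_22450 had 21.3, 24.3, 24.8, 20.4 and 25.6 CPM in COX11 KO, below the 69.7 to 102 CPM of NDUFA5 KO (log2 difference between the knockouts -1.90 ± 0.18, edgeR adjusted p = 7.8e-12). The highest WT library of ZT0, where the choice favoured low levels, had 15.3 CPM. Pp3c23_5890 had 0.458, 0.524, 0.925, 1.42 and 0.602 CPM in COX11 KO and 2.91, 2.66, 6.87 and 5.06 CPM in NDUFA5 KO (-2.43 ± 0.76, edgeR adjusted p = 0.0053). At ZT2, Pp3c1_7950 had 8.83, 8.48, 8.05, 7.89 and 9.03 CPM in COX11 KO and 17.2, 20.0, 15.1, 25.0 and 28.7 CPM in NDUFA5 KO (-1.33 ± 0.18, edgeR adjusted p = 3.54e-07). The COX11 KO libraries of this gene lay close together, below every NDUFA5 KO library. At ZT6, Pp3c14_10490 had 0, 0.191, 2.61, 1.32 and 0.704 CPM in COX11 KO and 3.04, 37.7, 130.2, 6.56 and 70.02 CPM in NDUFA5 KO (-5.66 ± 1.18, edgeR adjusted p = 0.00064), with a wide spread in NDUFA5 KO. The members higher in COX11 KO at ZT6 included Pp3c9_5280, with 140, 116, 124, 129 and 103 CPM against 51.2, 79.1, 67.3, 47.2 and 42.5 CPM (1.09 ± 0.28, edgeR adjusted p = 0.0046).

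**Figure D4:**
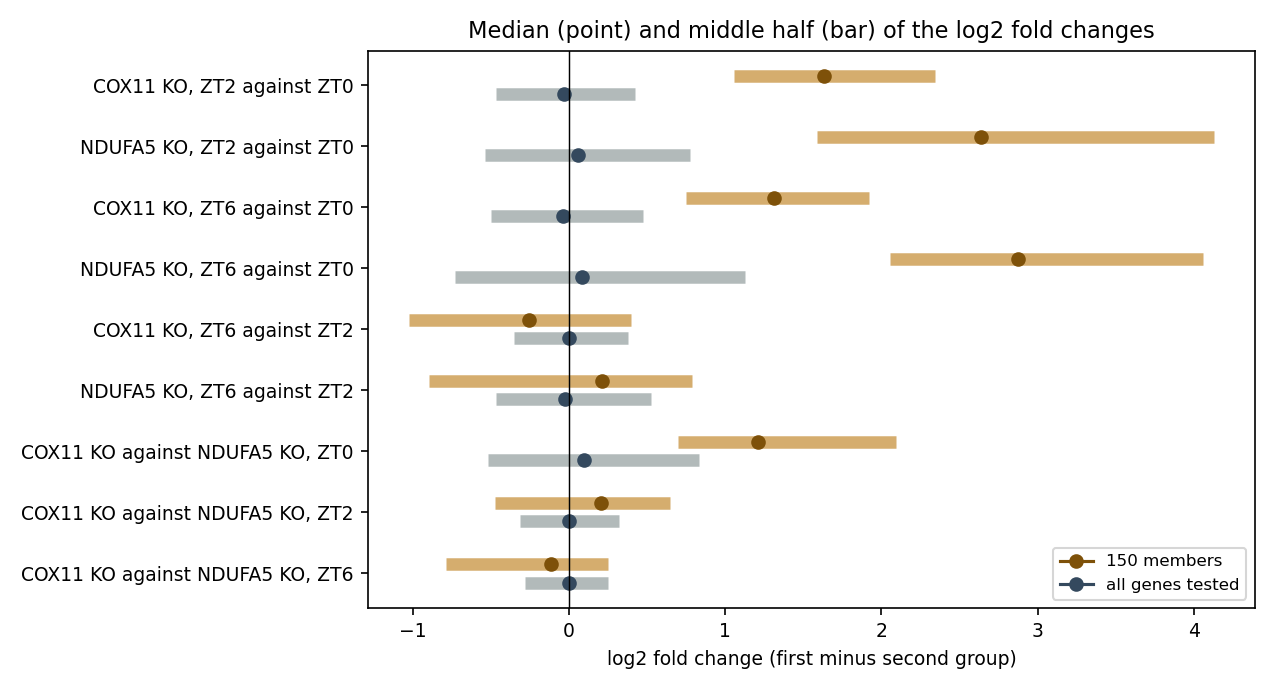
Median (points) and range from the lower to the upper quartile (bars) of log2 fold changes over the 150 members (brown) and over the 18460 genes tested (grey), for 9 contrasts within and between the knockouts. The members lie to the right of all genes in the 4 contrasts of light against ZT0 and in the contrast of the knockouts at ZT0, with medians of 1.64, 2.64, 1.31, 2.87 and 1.21.

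The difference in the size of the rise was itself tested, as the change in NDUFA5 KO minus the change in COX11 KO. From ZT0 to ZT2 the rise was larger in NDUFA5 KO in 74 members and smaller in 8, against 18% and 17.5% of all genes, with a median difference of 1 for the members and 0.09 for all genes on the log2 scale. From ZT0 to ZT6 it was larger in 100 members and smaller in 8, against 28.1% and 24.7% of all genes, with medians of 1.43 and 0.12. Both differences use the same ZT0 libraries, in which the members were lower in NDUFA5 KO. With library totals only, the medians of all genes were 0.38 and 0.48 and those of the members 1.27 and 1.78.

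Pp3c9_11160 and Pp3c20_1840 had the largest excess of the ZT2 rise in NDUFA5 KO. Pp3c9_11160 went from 0.208, 0.694, 0.404 and 0.241 CPM to 229, 53.6, 164, 14.2 and 12.9 CPM in NDUFA5 KO, and from 3.21, 9.78, 3.70, 15.7 and 4.96 CPM to 19.9, 25.1, 13.5, 39 and 16.2 CPM in COX11 KO. The difference of the changes was 6.05 ± 1.16 (SE; edgeR adjusted p = 7.11e-05). Pp3c20_1840 reached 2807, 727, 2195, 214 and 168 CPM in NDUFA5 KO at ZT2, from 2.91, 9.25, 4.85 and 0.965 CPM (difference 5.36 ± 1.11, edgeR adjusted p = 0.00019). The gene with the largest deficit was Pp3c18_22450, which rose in COX11 KO to 139, 126, 79.9, 120 and 92.9 CPM at ZT2 but had 97, 109, 90.2, 105 and 108 CPM in NDUFA5 KO, much as before light (difference -2.04 ± 0.25, edgeR adjusted p = 1.55e-08). For the rise to ZT6, the difference was 7.50 ± 1.79 for Pp3c24_9670 (edgeR adjusted p = 0.00052) and 6.79 ± 1.04 for Pp3c26_1140 (adjusted p = 5.84e-07), and it was -2.77 ± 0.86 for Pp3c23_5890 (adjusted p = 0.0065).

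**Figure D5:**
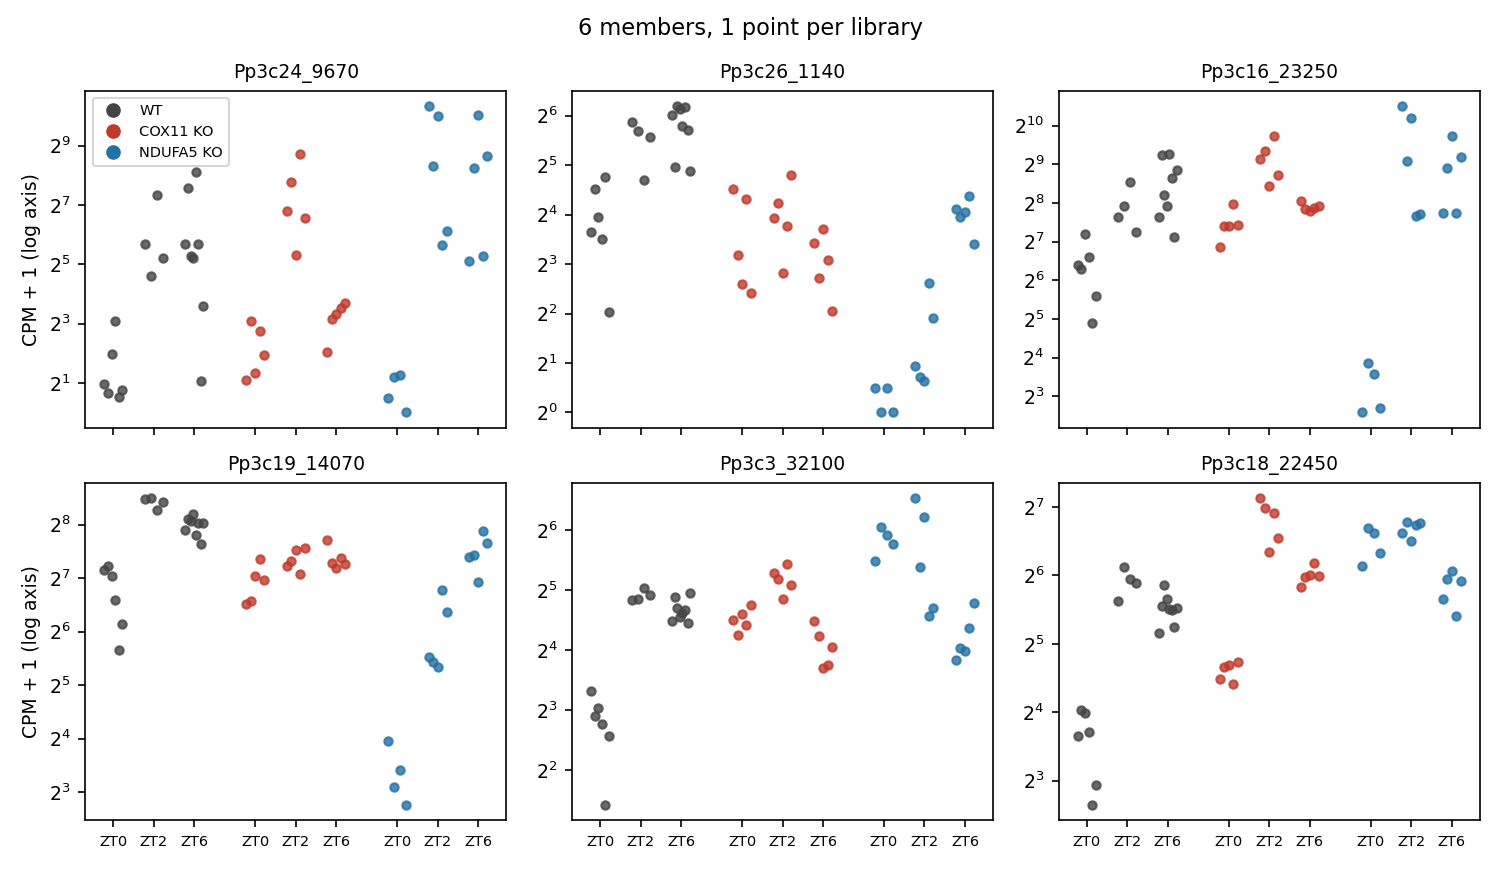
CPM + 1 of 6 members in each of the 47 libraries on a log axis with base 2, 1 point per library, by genotype (WT grey, COX11 KO red, NDUFA5 KO blue) and ZT. Pp3c24_9670 falls back in COX11 KO at ZT6, at most 11.8 CPM. Pp3c26_1140, Pp3c16_23250 and Pp3c19_14070 start lowest in NDUFA5 KO, and Pp3c3_32100 and Pp3c18_22450 start highest there.

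Against WT, values are descriptions only, because the WT libraries chose the members and nothing is read from the counts. The choice favoured low WT levels at ZT0 and high WT levels in the light. It therefore biases the knockouts toward higher than WT at ZT0 and lower than WT in the light. In COX11 KO, 39 members were past the threshold higher and 13 lower at ZT0 (19.9% and 20.7% of all genes), 19 and 57 at ZT2 (13.7% and 16.2%), and 9 and 64 at ZT6 (20.7% and 23.1%). The member medians of the log2 differences from WT were 0.13, -0.29 and -0.42. In NDUFA5 KO, 10 were higher and 91 lower at ZT0 (30% and 31.6% of all genes), 38 and 74 at ZT2 (22.9% and 21.1%), and 12 and 57 at ZT6 (18.7% and 20.5%). The medians were -1.20, -0.54 and -0.31. Within WT itself, the rule required the rise and the held level in the WT libraries, so the counts follow largely from the choice. Past the threshold, 149 members were higher at ZT2 than at ZT0 and 0 lower (25% and 24.8% of all genes). At ZT6, 149 members were higher than at ZT0 and 0 lower (28.5% and 28.3% of all genes). From ZT2 to ZT6, 2 members were higher and 3 lower (16.5% and 17.8% of all genes). The shares of all genes are therefore no yardstick for these WT counts.

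Pp3c1_34890 was nearly absent from both knockouts. In WT it had 26.7, 19.3, 3.90 and 12.6 CPM at ZT2, a range of 2.61 to 66.5 CPM at ZT6, and at ZT0 a range of 0 to 17.7 CPM with a median of 0.666. COX11 KO had 0 counts of it at ZT2, where WT had 340 counts, so that WT was at least 167-fold higher against the floor of 3 counts over the COX11 KO group. Without WT replicate 1 of ZT2 this bound was 125-fold. At ZT6, COX11 KO and NDUFA5 KO had 1 count each and WT 749 counts, of which WT replicate 1 held 396. NDUFA5 KO had 2 counts at ZT2. No interval is given, because high WT light values chose this gene. At the other end, Pp3c6_8850 had 14.7, 27.6, 39.3, 35.8 and 39.6 CPM in COX11 KO at ZT0, while its highest WT library at ZT0 had 3.88 CPM. The log2 difference was 3.66, given without an error because low WT values at ZT0 helped to choose this gene. Pp3c26_12920 had 165, 214, 60.4, 297 and 76.8 CPM in COX11 KO at ZT2, where the WT libraries had 11.2, 16.6, 44.7 and 12.5 CPM. It had 580, 146, 444, 30.4 and 51.4 CPM in NDUFA5 KO at that time, where the values of line 48 lay near the highest WT library.

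Between lines 150 and 152, averaged over the times, 0 of 150 members and 0% of all genes were called by edgeR, 7 members (4.67%) and 2.76% of all genes had an unadjusted p under 0.05, and DESeq2 called 0 members. Between lines 46 and 48 of NDUFA5 KO, 2 members were called higher in line 46 and 2 lower, against 1.72% and 1.31% of all genes, and 48 members (32%) and 16.8% of all genes had an unadjusted p under 0.05. Those called were Pp3c10_9270 and Pp3c21_12340, higher in line 46, and Pp3c13_16130 and Pp3c21_18980, lower in it. Their edgeR adjusted p were 0.0490, 0.0035, 0.0022 and 0.0436 in that order. Pp3c10_9270 was not called with library totals only (edgeR adjusted p = 0.0548), and it and Pp3c21_18980 each lost the call without some single libraries. For 1 library, NDUFA5 KO 46-3 at ZT6, the labels give both lines, and the title was followed. With this library taken as line 48, 0 members were called. At ZT2, all 3 libraries of line 46 lay above both libraries of line 48 in 58 members and below both in 62, against 24.3% and 25.4% of all genes by the same count. At that time the libraries of line 46 have codes in Z and those of line 48 codes in A, so that line and code letter cannot be told apart. In Pp3c13_16130, line 46 had 18.7, 15.2 and 16.4 CPM and line 48 had 43.3 and 42.8 CPM at ZT2. In Pp3c10_9270, line 46 had 789, 276 and 647 CPM and line 48 had 119 and 105 CPM.

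The code letter also moves with time, since all 6 WT libraries of ZT0 have codes in Z and all 4 of ZT2 codes in A. In WT the letter and the step from ZT0 to ZT2 therefore cannot be told apart. COX11 KO is close to this, with codes in Z in all 5 libraries of ZT0 and codes in A in 4 of the 5 of ZT2. With the letter as a covariate, 129 members were called higher at ZT2 than at ZT0 in COX11 KO and 0 lower. Of all genes, 20.7% were called higher and 20.7% lower in that fit. In NDUFA5 KO, libraries with codes in Z were present at all times. Among these alone, 124 members were called between ZT0 and ZT2, 144 between ZT0 and ZT6 and 100 between ZT2 and ZT6, in either direction, against 49.4%, 66.5% and 44.8% of the 19072 genes in that fit. Over all its libraries NDUFA5 KO had 139, 143 and 93 such members, against 60.2%, 72% and 51.3% of all genes. The NDUFA5 KO libraries with codes in Z were of line 46 alone at ZT2 and of both lines at ZT0 and ZT6. Within codes in Z, the contrasts with ZT2 therefore change the mix of lines as well as the time. In COX11 KO, 113 members were called between ZT0 and ZT6 within codes in Z (45.5% of all genes in that fit), where all its libraries gave 111 (51.1% of all genes), and the ZT2 group held 1 such library. The fits restricted to codes in Z were added after the data had been seen.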

How the data were processed

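Estimated counts per gene were deposited by the authors in 1 table, not normalized. The tools were HTSeq 2.0.2, Bowtie2 2.2.5 and SAMtools 1.6, per the submitters' processing notes. For their settings, the build and the annotation the sources used here give nothing. Of the 57 columns, 47 carried the code of a library used here and 10 were not used. Of the deposited estimated counts, 2.35% were not whole (tolerance 1e-06), in 3 of the 150 members, none of them named; all were rounded. The 5 summary lines, 26.2% to 39.9% of a library, were left out.

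Of the 32926 genes, 18460 passed edgeR's filterByExpr with the 9 groups. edgeR 4.0.16 (limma 3.58.1, R 4.3.3) fitted all 47 libraries with TMM scaling, and the quasi-likelihood F test was run on each contrast with Benjamini-Hochberg adjustment over all genes. Standard errors come from the F statistic; the prior count of log2 CPM was 2. The test was checked on simulated counts. Alternatives were DESeq2 1.42.0, other scalings, filters and sets of libraries, a replicate block, the code letter and leaving out each library. Floors cover counting error only.

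Genes named were, per contrast, up to 2 per direction with the largest change among called members without overlap between groups (between lines and for differences of changes, called members; against WT, 1 per direction), plus members at both ends of the score and the most abundant. The members and rules were chosen with earlier results of these data known. Of the identifiers, 0 were found in the reference table, so no gene list or sequence was used.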

Additional observations from a re-analysis of the deposited data

Results flagged for a closer look

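Single libraries stood far from the rest of their group in 11 of the 101 groups searched, over named genes and the members' share of gene counts. The measure was the gap to the nearest library as a share of the group's range. Its limit passes about 1 in 20 groups of normally distributed values. CPM were not put on a log scale here, and most genes were named for large changes. The 11 groups are therefore not read as an excess. Where 1 library alone had counts, the measure is at its maximum whatever the count. In WT, replicate 4 of ZT0 had 7.54 CPM of Pp3c24_9670, replicate 5 of ZT0 had 17.7 CPM of Pp3c1_34890, and replicate 3 of ZT2 had 44.7 CPM of Pp3c26_12920. In COX11 KO, 150-2 at ZT0 had 3.32 CPM of Pp3c1_37850, and 152-1 at ZT6 had 7.48 CPM of Pp3c21_12340, the lowest of its group. In NDUFA5 KO, Pp3c3_12760 had 3.11 CPM in 48-2 at ZT2 and 9.88 CPM in 46-1 at ZT6. Knockout groups with counts of Pp3c1_34890 in a single library were COX11 KO at ZT0 and ZT6, through 150-2 with 0.175 and 0.191 CPM, and NDUFA5 KO at ZT2 and ZT6, through 46-3 with 0.373 and 0.165 CPM. NDUFA5 KO at ZT0, not among the groups searched for this gene, also had them in 1 library, 46-2 with 0.116 CPM.

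The change from ZT0 to light differed between the knockouts in the tested difference itself for many members. The 7 genes given here were named for it, as the called members with the largest differences, up to 2 per direction and difference. Other named genes were not checked for this list. The difference is NDUFA5 KO minus COX11 KO on the log2 scale. From ZT0 to ZT2 it was 6.05 for Pp3c9_11160, 5.36 for Pp3c20_1840, -2.04 for Pp3c18_22450 and -1.60 for Pp3c8_2060. From ZT0 to ZT6 it was 7.50 for Pp3c24_9670, 6.79 for Pp3c26_1140, -2.77 for Pp3c23_5890 and -2.09 for Pp3c18_22450. For Pp3c8_2060 the adjusted p of edgeR's quasi-likelihood test was 0.0309, and it was 0.103 with the code letter as a covariate. In that gene NDUFA5 KO at ZT2 had 7.62, 9.61 and 7.84 CPM in line 46 and 34.3 and 26.9 CPM in line 48, and COX11 KO 150-3, its only ZT2 library with a code in Z, had 5.01 CPM against 25.9 to 32 CPM in the others.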

How the results depend on the processing

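The counts of called members stayed within 1.5 times the main count in every contrast and alternative run, except between NDUFA5 KO lines 46 and 48. There the main count was 4, and it was 8 by DESeq2, 10 with knockout libraries only and 0 with 46-3 of ZT6 taken as line 48. Leaving out 1 library gave 2 to 8: 8 without 46-1 of ZT6, 7 without 46-1 of ZT0 or 48-2 of ZT6, and 2 without any of 46-2, 48-1 or 48-2 of ZT0, 46-1, 46-3 or 48-1 of ZT2, or 46-2, 46-3 or 48-1 of ZT6. Leaving out each library gave 130 to 135, 106 to 112 and 58 to 75 for COX11 KO (ZT2 and ZT6 against ZT0, ZT6 against ZT2) and 134 to 139, 141 to 144 and 81 to 101 for NDUFA5 KO. Between the knockouts it gave 102 to 115, 47 to 76 and 33 to 42 at ZT0, ZT2 and ZT6, for the differences of changes 72 to 83 and 102 to 112, and for lines 150 and 152 0 to 0. Leaving out each WT library kept 128 to 147 of the 150 members, fewest without ZT2 replicate 3, and TMM-scaled totals kept 141.

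Library totals moved the median of all genes by more than 0.1 in contrasts that set NDUFA5 KO at ZT0 against light, to 0.35 at ZT2 and 0.43 at ZT6. With codes in Z only, 12 members were higher and 33 lower in COX11 KO than in NDUFA5 KO at ZT6, against 8.31% and 7.34% of all genes in that fit. Replicate numbers did not pair the samples: over 40 same-number pairs the correlation of deviations ran from -0.34 to 0.49, with a median of -0.04. With the replicate block the counts were 131, 109 and 74 in COX11 KO, 139, 141 and 91 in NDUFA5 KO, 112, 68 and 38 between the knockouts, 83 and 110 for the differences, and 0 and 6 between lines.

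For named genes, 360 values under the other alternatives kept direction and call and 13 lost the call; among those that left out 1 library, 1188 kept both and 59 lost the call. None reversed. The losses were in Pp3c21_12340 (COX11 KO, ZT6 against ZT0), Pp3c18_22450 (NDUFA5 KO, ZT6 against ZT0), Pp3c8_2060 and the 4 genes called between lines 46 and 48. The causes were not tested. Depth limits members near 0 counts, such as Pp3c24_9770 and Pp3c1_34890.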

Other observations

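The 8 WT libraries of ZT6 were not alike in these genes. Replicates 2 and 5 were the highest pair of the 8 in 39 of the 150 members (26%) and the lowest pair in 25 (16.7%). Over all genes tested the shares were 6.86% and 6.55%. These classes were formed after the values had been seen, from WT libraries that also took part in choosing the members. No test compares the classes. The calls below are those of the fit over all genes, counted by class as a description.

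From ZT2 to ZT6 in COX11 KO, 28 of the 39 members in which replicates 2 and 5 were highest were called lower and 0 higher by edgeR at FDR 0.05 (71.8% lower, against 37.4% lower and 7.03% higher among the 1266 genes of the whole table in that class), with a median log2 change of -1.80. In NDUFA5 KO 16 were lower and 0 higher (41% lower, near the 40% lower and 13% higher of those 1266 genes), with a median of -0.92. At ZT2, line 46 of NDUFA5 KO was above line 48 in 37 of the 39 (94.9%, against 75% of the 1266 genes), by a median of 2.37 on the log2 scale, against 0.50. Their median rise from ZT0 to ZT2 in NDUFA5 KO was 5.57, and 2.05 in the 86 members where replicates 2 and 5 were neither highest nor lowest. Over all genes tested in those classes the medians were 0.40 and 0.04. Among the 25 members in which replicates 2 and 5 were lowest, 7 were higher and 1 lower from ZT2 to ZT6 in COX11 KO, 14 were higher and 1 lower in NDUFA5 KO, and line 46 was above line 48 at ZT2 in 3. Among the 1210 genes of that class in the whole table, 37.9% were higher and 10.5% lower in COX11 KO, 44.4% higher and 16.1% lower in NDUFA5 KO, and line 46 was above line 48 in 28.3%. Pp3c24_9670 had 189.6 and 275 CPM in WT replicates 2 and 5 at ZT6 and 1.07 CPM in replicate 7. Pp3c20_1840 had 203 and 326 CPM in replicates 2 and 5 and 14.9 CPM in replicate 7.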
